A study of Mus musculus with 2 samples.

Results

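A set of 10 early response genes was followed in mouse heart: the zinc finger factors Egr1, Egr2 and Egr3, the orphan nuclear receptors Nr4a1, Nr4a2 and Nr4a3, the immediate early response genes Ier2 and Ier3, the Krüppel-like factor Klf4 and the growth regulator Myc. The genes were picked by name, and their probes were found by RefSeq accession, which gave 11 probes for the 10 genes out of 21368 named genes on the array. Each group is 1 Agilent array in 1 colour, carrying Cy3-labelled copies of total heart RNA. The control was heart labelled control on the C57BL6 background, and it was set against heart of a transgenic line on the same background that carries CAG-WRN*K577M, here called WRN-K577M. The transgene encodes the DNA helicase WRN with a substitution and is driven by CAG, a promoter active in most cell types rather than in cardiomyocytes alone. The submitters set up the comparison to ask which signals lead to cardiac remodelling. Age, the number of hearts per sample and the meaning of ND in both sample titles are not given in the sources used here.

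Immediate early genes are switched on within minutes of a stimulus without new protein synthesis, because the factors that induce them, SRF with its ternary complex partners and CREB, are already bound near their promoters and are activated by ERK and other kinases. Their messages are short-lived, so that their level follows recent signalling. Egr proteins bind GC-rich sites and induce their own Nab co-repressors, Nr4a proteins act as receptors without a known hormone, and Myc drives ribosome production and growth with its partner Max. In the heart, members of this group are induced by stretch, catecholamines and pressure load, and also by handling of the tissue.

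Levels are log2 processed signals minus the 75th percentile for that array, and subtracting the control from the WRN-K577M level gives the log2 ratio. A gene is called measured where a probe was well above background on both arrays. Genotypes cannot be tested against each other with 1 array each, and that number limits the precision. Each ratio is therefore set beside the error that the scanner software gives for it, about 0.20 for a bright spot, and beside the SD of 0.13 between spots of the same probe, both of which cover measurement only. Of the 10 early genes 8 were measured, Nr4a3 was well above background in the control alone, and Egr3 was not well above background on either array.

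Most early genes had lower levels in the WRN-K577M heart. Among the 8 measured genes, Nr4a1, Nr4a2, Egr1 and Ier2 were at least 2-fold lower, Myc was at least 2-fold higher, and Egr2, Klf4 and Ier3 differed by less than 2-fold. In all measured genes of the array, 3.46% were at least 2-fold lower and 1.94% at least 2-fold higher. A log2 ratio below 0 was found for 6 of the 8 early genes, against 47.6% of the 14003 measured genes. The median log2 ratio of the 8 was -1.0, with a range from -1.85 to 1.23, and that of all measured genes was 0.020. The early genes thus moved in both directions, with Ier3 and Myc above 0. Fewer cells of a type that expresses a gene and less RNA per cell cannot be told apart in RNA of whole tissue.

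**Figure D1:**
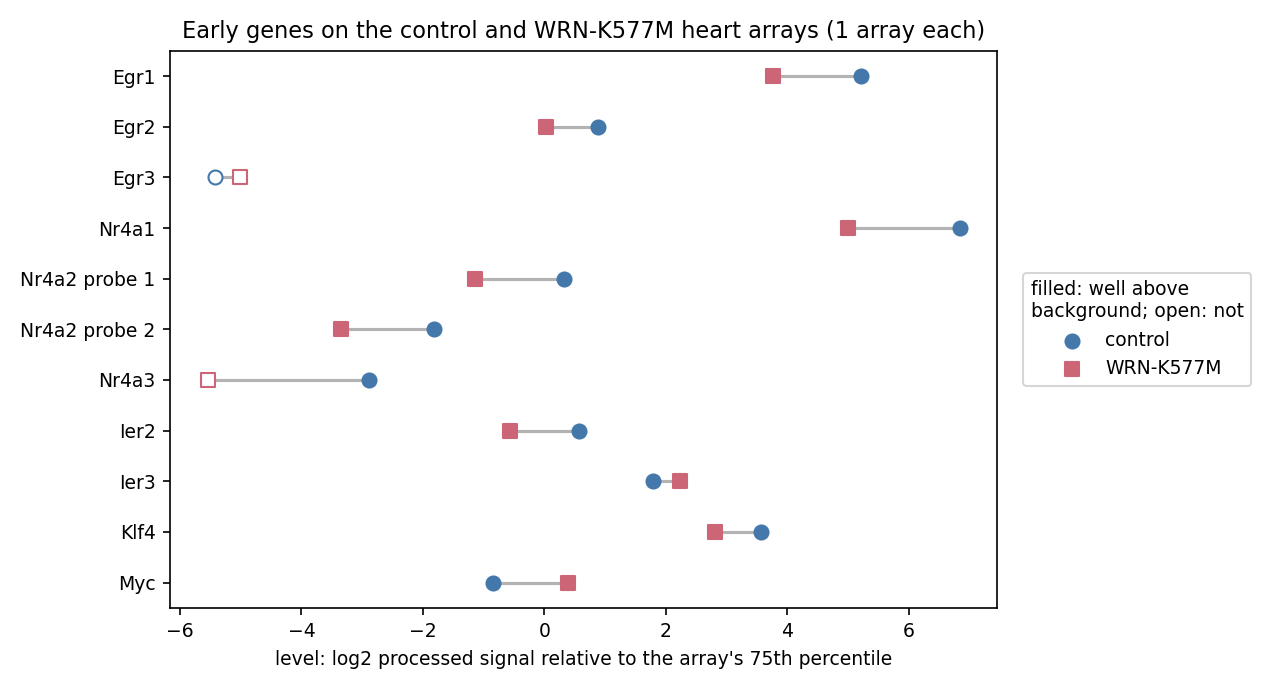
Level of each early gene probe (horizontal axis, log2 processed signal scaled to the array's 75th percentile) in the control (circles) and WRN-K577M heart (squares), 1 array each, open where the probe was not well above background. Within a row the squares lie left of the circles for all probes but those of Egr3, Ier3 and Myc, and positions are not comparable between rows because probes differ in brightness.

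Several lists of cell type markers differed between the arrays as well. All 10 ventricular cardiomyocyte markers were measured with a median log2 ratio of 0.16, so ventricular RNA was present on both arrays, and 1, the myosin Myh7, was at least 2-fold higher (3.91). Their summed linear level was 4783 (control) and 6119 (WRN-K577M), the order used for the other sums. The 8 endothelial markers, of cells that express Klf2 and Klf4, had none at 2-fold, a median of -0.0055 and summed levels of 70.4 and 68.8. Macrophage markers, of cells that express Nr4a1 and Egr2, were below 0 in 8 of 8, 4 of them at least 2-fold lower, with summed levels of 33.9 and 20.3. Smooth muscle markers had 1 of 6 at least 2-fold lower and summed levels of 116 and 97.6, and fibroblast markers 5 of 7, with 299 and 218. All 7 measured atrial markers were at least 2-fold lower (656 and 157). Their log2 ratios ran from -9.41 for Sln, -7.39 for Myl7 and -7.12 for Myl4 to -1.06 for the brightest of the 7. At least 2-fold lower too were 4 of 5 erythroid (1589 and 610), 2 of 4 neutrophil (41.9 and 3.36) and 4 of 5 adipocyte markers. The adipocyte sum was 159 and 196, with Fabp4, the remaining one, at 0.53. Plin1, Retnlg and Fgf12 of these lists were well above background in the control alone, and Lep and Ngp on neither array. Of T and B cell markers 2 of 7 were measured, neither 2-fold different, with sums of 3.13 and 3.05, and Cd8a and Cd79a were on neither array well above background. The lung markers Scgb1a1 and Wfdc2 summed to 56.3 and 0.346, and the surfactant genes Sftpa1, Sftpb, Sftpc and Sftpd were well above background in the control alone. After normexp the macrophage count was 1 with a median of -0.64, in place of 4 and -1.07, and the smooth muscle count was 2 after quantile normalization and 3 after cyclic loess. With the stricter filter on dim probes 4 atrial, 2 adipocyte and 0 lung markers were at least 2-fold lower, since fewer were tested. The part of these cells in the lower early genes was not tested.

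The arrays shared a slide and a scan day. Well above background were 55.2% of control and 52.9% of WRN-K577M probes, and no spot was saturated. Mouse Wrn was read by 2 probes: 1 had levels of -3.02 and -3.23, and the other was detected on the WRN-K577M array alone, at -3.96. It is not known whether they read the transgene, so the label is unchecked by them.

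Egr1, the best studied factor of the Egr family and a relay from ERK and SRF to growth factor and matrix genes, gave processed signals of 9488 (control) and 2862 (WRN-K577M). Its levels were 5.21 and 3.77, a log2 ratio of -1.44 with a software error of 0.20, or 2.72-fold lower. Both signals lay far above the local background of 43 and 46, so background did not limit this ratio. Egr2, known for its part in myelination and in lymphocyte tolerance, gave processed signals of 472 (control) and 213 (WRN-K577M), or levels of 0.88 and 0.025. Its log2 ratio was -0.86 (software error 0.20), 1.81-fold lower and inside the 2-fold line. The ratio of Egr1 lay 0.58 below that of Egr2 on the log2 scale, with a combined software error of 0.29. Egr3, which is needed for muscle spindles and acts in lymphocytes, gave raw median signals of 41 and 42 over a local background of 32 on both arrays. It was not well above background on either, so no ratio is given for it. Among the 14003 measured genes, 1.32% had a ratio below that of Egr1 and 4.73% one below that of Egr2.

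The Nr4a receptors were lower in the WRN-K577M heart by every probe that detected them. Nr4a1 (Nur77), which is induced by adrenergic and calcium signals in muscle, gave processed signals of 29278 (control) and 6662 (WRN-K577M). Its levels were 6.84 and 4.99, a log2 ratio of -1.85 (software error 0.20) or 3.60-fold lower, which is the lowest ratio of the 8 measured early genes. It ranked at 106 from the lowest among the 14003 measured genes. Nr4a2 (Nurr1), best known for dopaminergic neurons and induced in other tissues by cyclic AMP, was read by 2 probes. The brighter probe gave processed signals of 319 and 95.1, or levels of 0.32 (control) and -1.14 (WRN-K577M), a log2 ratio of -1.46 (software error 0.21). The dimmer probe gave signals of 73.0 and 20.5, or levels of -1.81 and -3.35, a log2 ratio of -1.54 (software error 0.26). The ratios of the probes differed by 0.082 with a combined software error of 0.34, so they were alike within measurement error. The ratio of Nr4a1 lay 0.39 below that of the brighter Nr4a2 probe, with a combined error of 0.29.

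Nr4a3 (Nor1), known for induction in muscle by adrenergic agonists and exercise, was printed at 10 spots of 1 probe, which shows the spread within each array. Of these, 1 spot was left out as an outlier of the WRN-K577M array. In the 9 others the processed signal ran from 30.1 to 49.0 (median 33.2) on the control array and from 2.16 to 9.05 (median 4.35) on the WRN-K577M array. The raw median signals of these spots ran from 58.5 to 86 (control) and from 39.5 to 48 (WRN-K577M), over local backgrounds of 39 to 45 and 40 to 45. All 9 spots were well above background on the control array and none on the other. The spots repeat the reading of 1 RNA sample per array and are not replicates of a genotype. The spot left out had signals of 32.1 and 14.6, lower in the WRN-K577M heart too but well above background on both arrays. Its levels were -3.00 (control) and -3.84 (WRN-K577M), a log2 ratio of -0.85, inside the 2-fold line. Because the WRN-K577M signal was not well above background, the log2 ratios of single spots, from -4.22 to -1.79 with an SD of 0.77, are not read as sizes. The lowest level of any probe well above background on that array was -4.42. Against it, the mean control level of -2.89 over the 9 kept spots makes Nr4a3 at least 2.89-fold lower. The spot left out falls short of this bound. With this bound 5 of 9 early genes were at least 2-fold lower, where 4.16% of all genes measured or with a bound were, and 1 of 9 was at least 2-fold higher, against 2.28%.

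**Figure D2:**
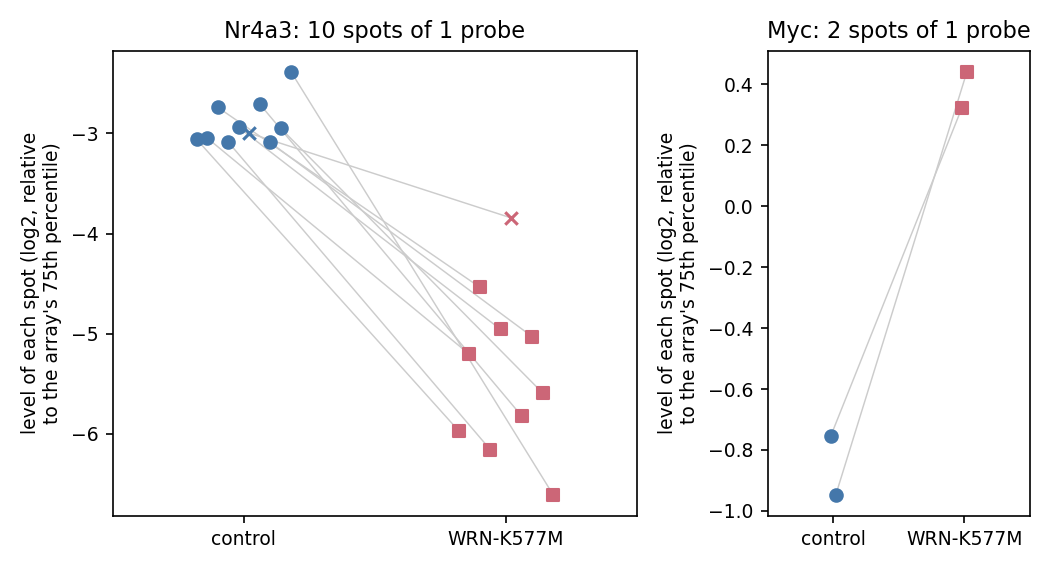
Level of every spot (vertical axis, log2, scaled to the array's 75th percentile) of the Nr4a3 probe, at 10 spots, and the Myc probe, at 2 spots, on the control and WRN-K577M arrays. Lines join the same spot position and crosses mark the Nr4a3 spot left out as an outlier. All kept Nr4a3 spots are lower and both Myc spots higher on the WRN-K577M array, with no overlap between arrays.

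The upstream sequences of the Nr4a genes are shown because all 3 receptors were lower together, and that of Egr2 because it carries both of the motif types through which early genes are known to be induced. RefSeq promoter windows of the build GRCm38.p6 were used for 6 of the 10 genes. Windows of Egr3, Ier2 and Myc were not among those given, and that of Egr1 was left out of the search. The motif matches described here therefore do not cover these genes, and they give no comparison of Egr1 with Egr2. The 250 bases before the start are printed, 5′ to 3′ on the strand of the gene. Capitals mark CGTCA, the core of the CREB binding motif, on either strand (TGACG where it lies on the other strand), and the CArG box that SRF binds.
Nr4a1, chr15:101266596-101266845, + strand: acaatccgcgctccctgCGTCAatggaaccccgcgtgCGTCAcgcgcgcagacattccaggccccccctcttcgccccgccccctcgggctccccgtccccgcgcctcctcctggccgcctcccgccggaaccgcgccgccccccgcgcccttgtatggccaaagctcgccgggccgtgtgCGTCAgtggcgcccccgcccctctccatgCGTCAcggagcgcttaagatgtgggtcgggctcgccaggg
Nr4a2, chr2:57124004-57124253, - strand: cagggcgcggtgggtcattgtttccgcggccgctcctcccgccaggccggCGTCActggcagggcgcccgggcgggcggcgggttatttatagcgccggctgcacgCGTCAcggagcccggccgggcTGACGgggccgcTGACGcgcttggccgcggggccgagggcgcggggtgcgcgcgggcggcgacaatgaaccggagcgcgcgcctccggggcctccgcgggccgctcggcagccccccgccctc
Nr4a3, chr4:48045055-48045304, + strand: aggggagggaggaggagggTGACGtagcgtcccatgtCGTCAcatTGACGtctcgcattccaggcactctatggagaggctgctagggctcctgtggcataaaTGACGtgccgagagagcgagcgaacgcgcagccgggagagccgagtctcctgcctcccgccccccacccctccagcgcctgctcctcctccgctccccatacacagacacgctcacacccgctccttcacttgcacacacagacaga
Egr2, chr10:67537619-67537868, + strand: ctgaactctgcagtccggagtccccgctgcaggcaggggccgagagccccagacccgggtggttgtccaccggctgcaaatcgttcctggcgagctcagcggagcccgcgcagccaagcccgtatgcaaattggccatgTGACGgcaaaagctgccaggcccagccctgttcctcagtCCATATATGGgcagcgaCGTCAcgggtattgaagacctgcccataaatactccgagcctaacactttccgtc

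Each of the Nr4a windows held 4 matches to CGTCA, counted on both strands. Of 32851 promoter windows of this length, 17.8% held at least 1 match and 0.137% held 4 or more. The Nr4a windows are rich in GC, with 74.4% for Nr4a1, 80.0% for Nr4a2 and 63.6% for Nr4a3, against a median of 52.4% over all windows, and the motif holds a CpG. In Nr4a1 all 4 matches lay within TGCGTCA, a variant of the CREB and AP-1 motifs. Of all windows, 1.75% held this variant at least once and 0.003% held 4 or more. It was searched after its sequence had been seen, so these shares are not a test. In Nr4a3, 3 of the 4 lay within TGACGT, which 6.47% of windows held at least once and 0.152% held 3 or more times. The full CREB palindrome TGACGTCA was in none of the 4 printed windows. The printed Egr2 window held 2 matches to CGTCA and a CArG box whose first base lies 72 bases before the start. It is 1 of 5 Egr2 start sites listed, of which 4 had a CArG box upstream, and not all 5 windows held CGTCA. A CArG box was in 1.47% of all windows, and nothing is read from its presence here, since Egr2 is shown for holding it. The window of Klf4 held 1 match to CGTCA and that of Ier3 held none, and neither held a CArG box. The Nr4a response element AAAGGTCA and the Egr site GCGTGGGCG matched in none of the windows of these 6 genes. TATAAA matched in Nr4a2 (12.4% of all windows), and the E-box CACGTG, which Myc binds, in Klf4 and 1 Egr2 window (6.02%). Matches are a description of the letters in these windows and do not show binding.

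**Figure D3:**
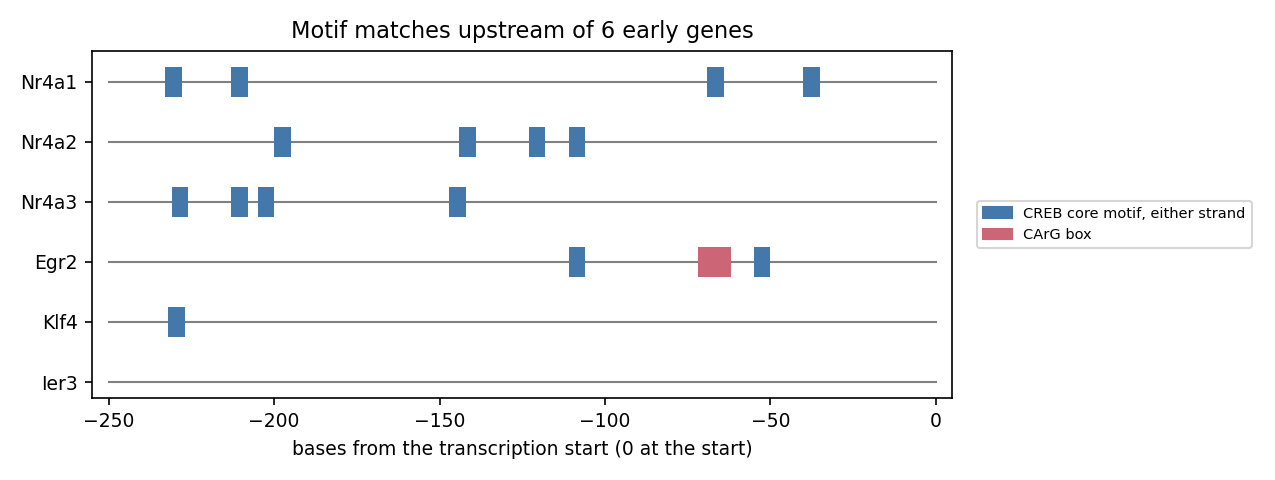
Position of motif matches in the 250 bases before the transcription start (horizontal axis, bases from the start at 0) of 6 early genes. Blue bars mark the CREB core motif on either strand and the red bar the CArG box. Each Nr4a window holds 4 blue bars, the Egr2 window printed above holds 2 and the red bar, Klf4 holds 1 and Ier3 none.

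The remaining early genes split. Ier2 (Pip92), a nuclear protein of the serum response, gave processed signals of 381 (control) and 141 (WRN-K577M). Its levels were 0.57 and -0.57, a log2 ratio of -1.15 (software error 0.21) or 2.21-fold lower. Ier3 (IEX-1), which is induced by NF-kappaB and stress and modulates cell survival, gave processed signals of 883 and 985. Scaled to each array its levels were 1.79 and 2.23, a log2 ratio of 0.44 (software error 0.20) or 1.36-fold higher. Although they share a name, Ier2 and Ier3 are not related in sequence, and their log2 ratios differed by 1.59 with a combined error of 0.29. Klf4, a zinc finger factor of the quiescent endothelium and smooth muscle that also limits cardiac hypertrophy in mice, gave processed signals of 3045 and 1472, or levels of 3.57 and 2.81. Its log2 ratio was -0.76 (software error 0.20), 1.69-fold lower, and 5.84% of measured genes had a lower ratio.

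Myc stood at the other end. Its probe was printed at 2 spots, with processed signals of 152 and 133 (control) and, at the same spots, 262 and 285 (WRN-K577M). The log2 ratios of the 2 spots, which repeat the reading of 1 RNA sample per array, were 1.08 and 1.39. The mean levels were -0.85 and 0.38, a log2 ratio of 1.23 (software error 0.21) or 2.35-fold higher. Among the measured genes, 1.01% had a higher ratio. The log2 ratio of Myc lay 2.67 above that of Egr1, with a combined error of 0.29, so the early genes did not share a direction.

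**Figure D4:**
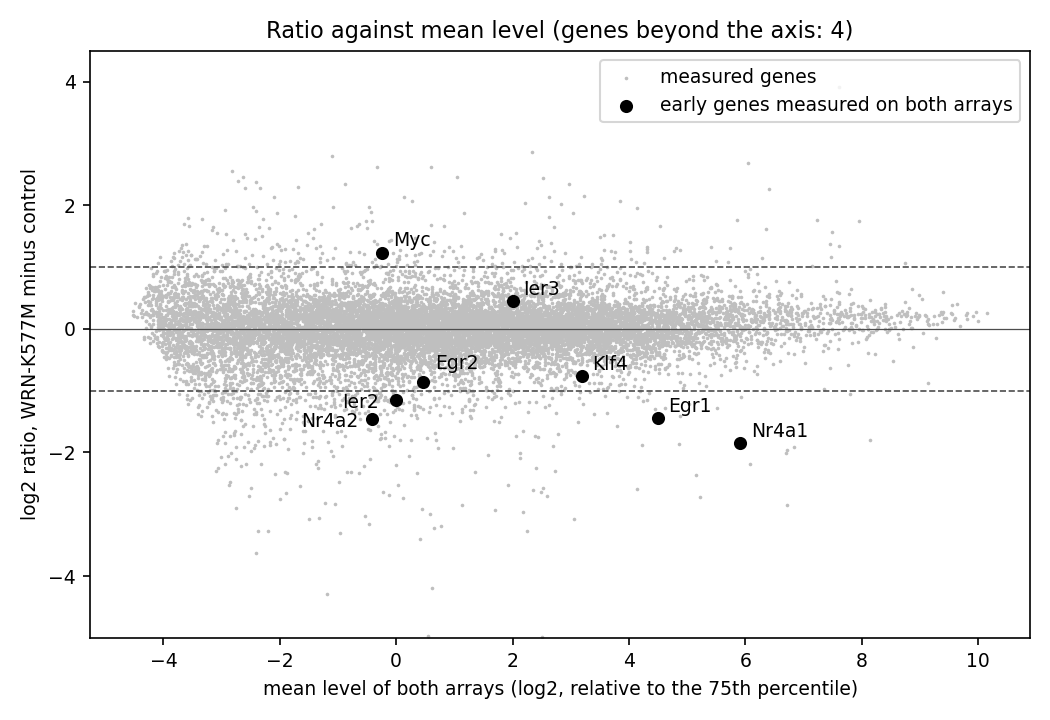
Log2 ratio (vertical axis, WRN-K577M minus control) against the mean level of both arrays (horizontal axis, log2) for the 14003 measured genes in grey and the 8 measured early genes in black, with dashed lines at 2-fold and 4 genes beyond the axis. Nr4a1, Egr1, Nr4a2 and Ier2 lie under the lower line, Myc above the upper line, and Egr2, Klf4 and Ier3 between the lines.

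Background correction decided some of these calls. After normexp correction, which adds an offset to every signal and so draws the ratios of dim probes toward 0, Nr4a1 (-1.83) and Egr1 (-1.53) were still at least 2-fold lower. The log2 ratio was then -0.98 for the brighter Nr4a2 probe, -0.88 for Ier2 and 0.89 for Myc, all inside the 2-fold line. The dimmer Nr4a2 probe was at -0.50, so the 2 probes were less alike than before. The bound of Nr4a3 was 1.18-fold in place of 2.89-fold. All 8 measured early genes kept their sign under the 7 scalings and corrections compared.

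The factors and kinases that induce early genes were followed as a route of 20 genes. All 20 were measured, and none differed by 2-fold. On the whole array 3.46% of measured genes were at least 2-fold lower and 1.94% at least 2-fold higher. A count of none in 20 lies near those shares. The kinase gene Mapk3 had a log2 ratio of -0.088. The probes of Srf went opposite ways, from -0.27 for the brighter to 0.40, and so did those of Creb1, from 0.18 for the brighter to -0.021, so neither gene has a direction here. Their median log2 ratio was -0.0089, with 10 below and 10 above 0. The largest ratios were those of Mrtfb, an actin-controlled partner of SRF (0.71), its relative Mrtfa (-0.46), Crem, a CREB relative (0.46), and Rps6ka5 (MSK1), a kinase that activates CREB (-0.46). Other probes gave smaller ratios, down to 0.34 for Mrtfb, -0.066 for Mrtfa and 0.20 for Crem. Some further genes of the route, beside Srf and Creb1, also had probes of either sign. Message levels do not measure the activity of these proteins. In the AP-1 family, whose genes are early response genes too, Fosb (log2 ratio -3.40), Fos (-2.57) and Atf3 (-1.90) were at least 2-fold lower, 3 of 7 measured genes, and Jun had a ratio of -0.96. The family did not share a direction, since Fosl2 had a ratio of 0.37 and Fosl1 was at least 2.48-fold higher. Fosl1 was detected on the WRN-K577M array alone, by a dim probe with levels of -5.78 (control) and -3.42 (WRN-K577M).

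A wider list of 38 other primary response genes, all measured, had 5 at least 2-fold lower, 3 at least 2-fold higher and 30 within 2-fold. The shares of all measured genes were 3.46% lower and 1.94% higher. The median log2 ratio of the list was -0.13. The largest ratio was that of Hbegf, a shed EGF receptor ligand (2.34), followed by Nfil3, a repressor linked to the clock (-1.66), Arrdc3, an arrestin that limits adrenergic receptors (1.41), and Dusp1, a phosphatase of MAP kinases (-1.37). This list therefore held large ratios of either sign, as the 10 early genes did. The lists were compiled with earlier results of these arrays known, and their counts describe these arrays only.

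Genes that work with or under the early factors showed few differences of 2-fold, as did the whole array (3.46% lower and 1.94% higher). Of the 11 measured Egr partners and genes known as Egr1 targets, 1 was at least 2-fold lower, Icam1, an adhesion molecule for leukocytes (-1.34, and -0.96 after normexp), and the median log2 ratio was -0.040. Nab2, the Egr co-repressor that Egr proteins induce, had a ratio of 0.65, opposite in sign to Egr1, and its relative Nab1 had one of -0.13. The next largest ratio of this list was that of Fn1, the matrix protein fibronectin (-0.74), with the sign of Egr1, and Mmp14, a membrane-bound matrix protease, had one of -0.39. Pdgfa (0.20), the tissue factor gene F3 (-0.04) and Pdgfb (0.13, with its other probe at -0.088) lay closer to 0. Egr4 was not well above background.

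The Nr4a partners and the muscle glucose genes reported to respond to Nr4a1 in mouse skeletal muscle were all measured. None of the 10 differed by 2-fold, a count near the shares of all measured genes (3.46% lower and 1.94% higher). Their median log2 ratio was -0.15, with 7 below 0. The retinoid X receptor Rxrg, of a family that pairs with Nr4a1 and Nr4a2, had levels of 5.04 and 4.31 (-0.72), and Pgam2, a muscle enzyme of glycolysis, had a ratio of -0.56. Rxra (-0.11, with its other probe at 0.19), Rxrb (-0.15) and Slc2a4, the insulin-responsive glucose transporter (-0.15), were close to 0.

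In the Klf family apart from Klf4, 12 of 16 genes were measured, with a median log2 ratio of 0.26 and 9 above 0. Klf2, the flow-induced factor of endothelium that acts beside Klf4, had levels of 5.30 and 4.44 and a log2 ratio of -0.85, which differed from that of Klf4 by 0.093 with a combined error of 0.29. Klf3 (-0.29) and Klf12 (-0.019) were the others below 0. Klf5, known for proliferating smooth muscle, was at least 2-fold higher (1.24), on a dim probe with levels of -4.28 and -3.04, and its ratio was 0.47 after normexp. Klf10, a target of TGF-beta, had a ratio of 0.75 and Klf15, a repressor of cardiac hypertrophy in mice, one of 0.42.

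No measured Myc partner or target reached 2-fold, which 3.46% (lower) and 1.94% (higher) of all measured genes did. Of the Max network 8 of 12 genes were measured, with a median log2 ratio of 0.26. Max, the obligate partner of Myc, had levels of 3.33 and 2.80 and a ratio of -0.53, while Mga, a Max-binding repressor (0.74), Mlxip (0.45) and Mnt, a Myc antagonist (0.40), lay above 0. Of 22 measured nucleolar and growth genes known as Myc targets, 17 lay above 0, with a range from -0.15 to 0.80 and a median of 0.23, against 0.020 for all measured genes. The largest were those of Gnl3, nucleostemin (0.80), Odc1, the first enzyme of polyamine synthesis (0.79), Nop58, a nucleolar ribonucleoprotein (0.66), and Wdr43, a ribosome assembly factor (0.57). None of these 22 reached 2-fold, and the probes of Odc1 ranged from 0.18 to 0.79.

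**Figure D5:**
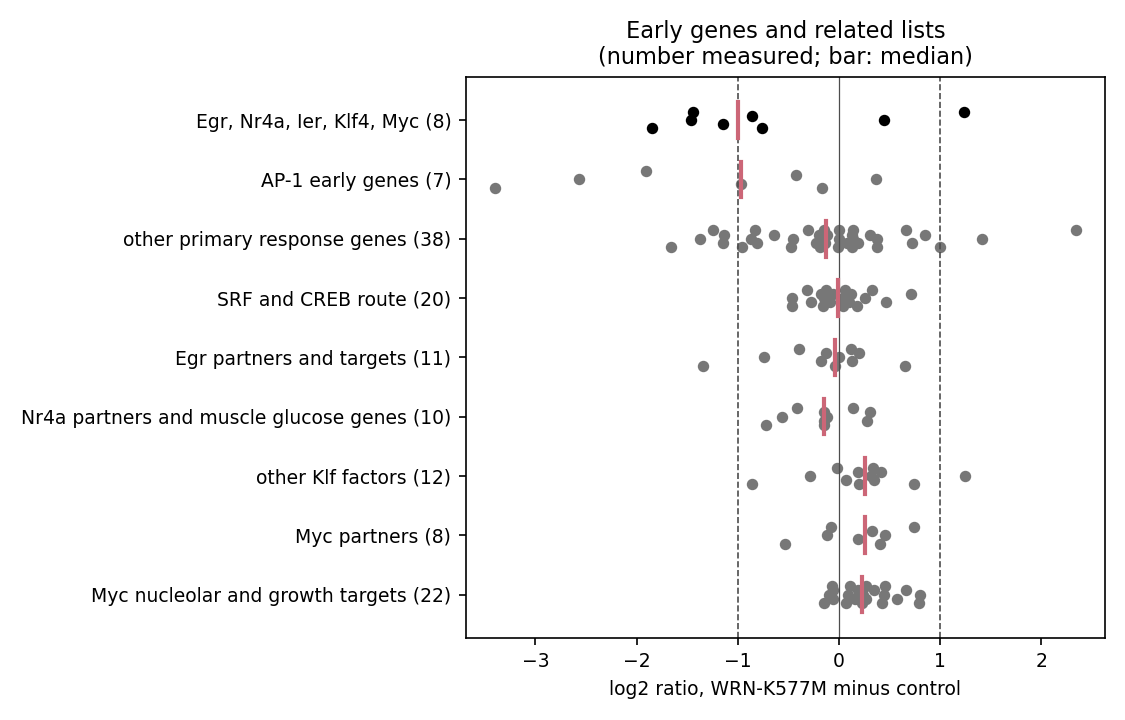
Log2 ratio (horizontal axis, WRN-K577M minus control) of each measured gene in the early genes and 8 related lists, with the number measured in brackets, the median as a red bar and dashed lines at 2-fold. The early genes have a median of -1.0 and AP-1 genes one of -0.96, while the medians of the other lists lie between -0.15 and 0.26.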

How the data were processed

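Total RNA of mouse heart was measured on 2 arrays, 1 per group, and groups were taken from the genotype in the labels. The deposited spot files hold intensity values from the scanner software Feature Extraction (version 11.5.1.1), as the submitters' processing notes and file headers state. The processed signal there has background subtracted and is detrended, without scaling between arrays, per the same headers. The deposited series matrix holds the same intensity times 1 factor per array (4.12 and 4.86). No source used here gives the choice of factors.

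Of 59305 spots that are not controls, 257 flagged as outliers on either array were left out. Log2 processed signal minus the 75th percentile of the array (256 and 210) was averaged over spots of a probe. A probe was well above background where most of its spots were. RefSeq accessions without versions were matched to a GRCm38.p6 table (22544 of 23871), which named 28330 probes. The array is annotated on mm9, per the file headers, so coordinates are given for RefSeq promoters alone. A gene took its brightest probe above background on both arrays, and other genes got a bound where 1 array detected them. No p-value was computed. The members, the 19 other lists and the motifs were chosen with earlier results of these data known. The text names every member, all genes of the Egr, Nr4a, Klf, AP-1 and Max lists as needed, and the 4 largest ratios of the others. Srf, Mapk3, Creb1 and Fabp4 were named for their role, after their values were seen.

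The pipeline was tested on simulated data of 14003 genes for this comparison, with the SD of 0.13 between spots as the error. All 50 genes set to a log2 ratio of -1.5 and all 50 set to 1.5 were called. None of the 50 set to 0.7, the 50 set to -0.7 or the 13803 unchanged genes was. That error is small beside the 2-fold line, and dim spots spread more, with an SD of 0.77 for Nr4a3. The run therefore checks the calling steps alone. The tools were limma 3.58.1 in R 4.3.3, and numpy 2.4.6, pandas 2.3.3 and matplotlib 3.10.9 in Python 3.11.15. Tried in turn were the deposited matrix, other scalings (quantile, cyclic loess, the median, or the percentile over detected probes), normexp with offset 50, looser or stricter dim-probe filters, averaging probes by gene, and 1.5-fold or 3-fold thresholds.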

Additional observations from a re-analysis of the deposited data

How the results depend on the processing

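After normexp correction 2 early genes were at least 2-fold lower and 0 higher, in place of 4 and 1, their median log2 ratio was -0.80, and 199 genes of the array were at least 2-fold lower and 115 higher, in place of 484 and 271. The offset draws dim ratios toward 0 by construction. With no filter on dim probes, over 21368 genes, the array's counts were 1080 lower and 1240 higher, and with the stricter filter, over 11179 genes, 268 and 165. At a threshold of 3-fold 1 early gene was lower and 0 higher, with 154 and 63 genes of the array. At 1.5-fold 1282 and 946 genes of the array passed, and the early genes at that threshold were 6 lower and 1 higher. Under quantile normalization, cyclic loess, both other percentile scalings, the mean of a gene's probes and the deposited matrix, 4 early genes were at least 2-fold lower and 1 higher. No early gene changed sign under the scalings run; the median of the SRF and CREB route lay between -0.060 and 0.027. Among the values for other lists and single genes, 1705 stayed within 1.5 times (counts) or the spot SD of 0.13 (log2 values) of those reported, and 97 moved further. The median of all measured genes lay between -0.034 and 0.049 under the scalings. No paired analysis was possible because each group has 1 array, and for the same reason no replicate could be left out.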
